A study of Mus musculus with 4 samples.

Results

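The genes described here are 36 genes of meiotic synapsis, sister chromatid cohesion and homologous recombination, followed in mouse testis with and without Taf7l. The members were given as a list of genes, with no threshold on their values. A member was measured where a probe set of the array carried its symbol, or an alias of it, and no other gene's, and the probe set with the brightest mean signal led for each gene. Of the 36 members, 34 had such a probe set, out of 18193 genes named in this way on the array, and Rad21l and Rnf212 had none. A probe set was tested where its mean signal over the 4 arrays reached 45.8, the median of all mouse probe sets, which kept 32 members of 12241 named genes. Prdm9 (23.2 and 27.0 in wild type, 29.4 and 27.0 in knockout) and Mnd1 (12.8 and 12.2 in wild type, 14.1 and 16.3 in knockout) lay under that level and were not tested. The members fell into synaptonemal complex genes (9 members, 9 tested), cohesin genes (6 members, 5 tested) and recombination genes (20 members, 17 tested), and Tex14, a gene of the intercellular bridge, stood in none of these.

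Taf7l, an X-linked relative of Taf7, encodes a testis form of a subunit of the general transcription factor TFIID, and the study compared whole testes with and without it. Both genotypes were adult males of 8 weeks on the C57BL/6J background, described as littermates, with no other allele or agent named. The 2 groups were wild type (2 arrays) and Taf7l knockout (2 arrays), and the labels do not describe the knockout allele. The second knockout array is replicate 2 by its title but replicate 1 by its description, so it is not settled that 2 knockout animals were used. The p-values and intervals therefore reflect array-to-array spread, part or all of which may be technical. A whole testis mixes all germ cell stages with somatic cells, so fewer cells of a type and less RNA per cell cannot be told apart.

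In meiotic prophase, homologous chromosomes pair along protein axes and are joined by the synaptonemal complex, a zipper of lateral and central elements. Cohesin rings hold sister chromatids together and form the base of the axes. Programmed DNA breaks are made by Spo11, processed, and repaired from the homologue by strand exchange, and a few of them become crossovers. Spermatocytes that fail in synapsis or in this repair are usually removed in the pachytene stage, so these genes are much studied in male infertility.

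The Taf7l probe set read 829 and 818 in wild type and 80.6 and 72.5 in knockout, a fall of 10.8-fold (log2 difference -3.43, SE 0.10, limma adjusted p = 0.0033), which matches the labels. The actin 3′ to 5′ signal ratio, a measure of RNA integrity, was 2.09 and 1.999 in wild type and 2.42 and 2.18 in knockout. The same ratio for Gapdh went the other way, with 1.04 and 0.990 in wild type and 0.927 and 0.938 in knockout, and the part of either in the results was not tested. Array medians lay between 45.2 and 45.7, while the trimmed mean was lower in knockout (465.3 and 481.1) than in wild type (508.8 on each array). The second wild type and the second knockout array shared 2385 identical values, against 228 to 620 for the other pairs of arrays. Taf7l kept its direction without each array in turn (log2 difference -3.51 to -3.35), but with 1 array left in a group no probe set on the array passed, Taf7l included, so those refits are read for size and direction alone.

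Most members' transcripts differed by small amounts between the genotypes. None of the 32 tested members passed the test (adjusted p under 0.05, limma with Benjamini-Hochberg adjustment over all 22519 tested probe sets), and 8 of 32 had an unadjusted p under 0.05, as had 24.7% of all tested probe sets. Over all tested probe sets 312 passed, which is 1.39%, with 0.444% higher and 0.941% lower in knockout. Of the members, 18 were higher and 14 lower in knockout, where 60.0% of all tested probe sets were lower. Their median log2 difference was 0.02, beside -0.05 (-0.045) for all tested probe sets. The median size of a member's difference was 0.12, and no member differed by 2-fold.

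The intervals of these differences were narrow. They rest on the same array-to-array spread as the p-values and do not cover the choice of normalization. For 31 of 32 members the 95% interval of the log2 difference lay inside a 2-fold change in either direction, Mei1 being the exception, and for 29 it lay inside a 1.5-fold change. The signals of the 2 genotypes did not overlap for 17 members, 8 of them higher and 9 lower in knockout. The background of such separation was high, at 55.0% of all tested probe sets, with 18.7% higher and 36.3% lower, so the count of separated members is near that of the array as a whole. For scale, the median size of a single-array difference over the members was 0.14 between the 2 knockout arrays and 0.07 between the 2 wild type arrays, beside 0.11 and 0.09 over all tested probe sets, for which the median size of the difference of genotype means was 0.14.

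**Figure D1:**
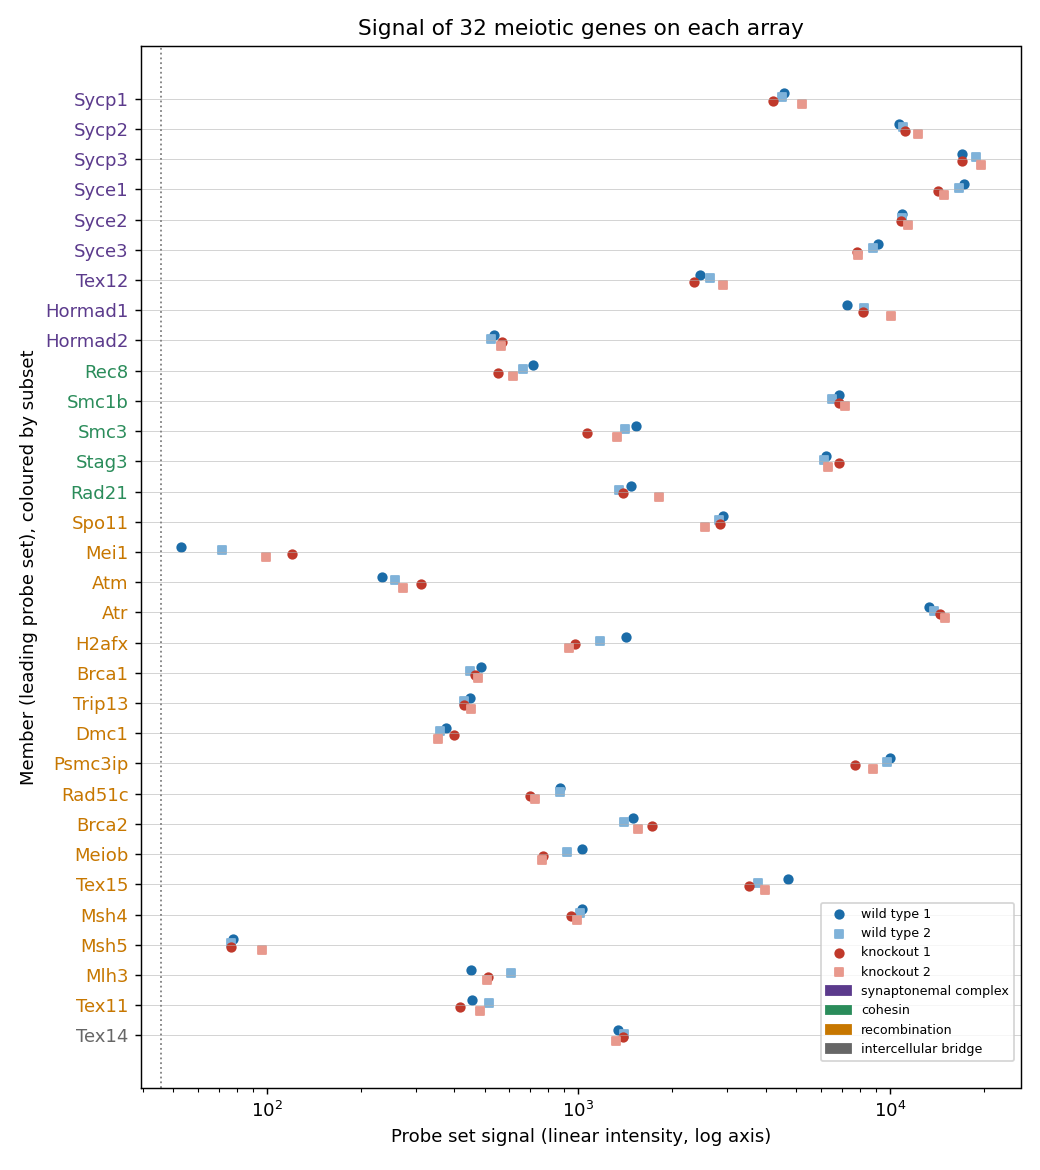
Signal of the leading probe set of the 32 tested members (1 line each, coloured by subset) on each of the 4 arrays, on a log axis of linear intensity; blue points are wild type, red points are Taf7l knockout, circles are replicate 1 and squares replicate 2, and the dotted line is the filter level of 45.8. The 4 points of most members lie close together, Mei1 being the widest apart (53.0 to 120).

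The synaptonemal complex genes showed no change that passed the test. Of the 9 members, 7 were higher and 2 lower in knockout, with log2 differences from -0.22 to 0.23 and a median of 0.04. Both genotypes' signals were separate for 4 members, 2 in each direction, where 55.0% of all tested probe sets were separate. The arrays of knockout did not agree among themselves here. Of the 9 members, 8 read higher on the second knockout array than on the first, by a median of 0.13. The same was seen for 56.3% of all tested probe sets, with a median of 0.02. Without the second knockout array the median difference of the 9 genes was -0.08. After quantile normalization the median was 0.16, which left the direction as it was.

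The 100 bases before the start of transcription are shown for the lateral element gene Sycp3, for the transverse filament gene Sycp1, for Hormad1, Syce2 and Tex12, which all hold the palindrome CACGTG there, and for Syce1, which holds none of the motifs searched. Sequences are RefSeq's on build GRCm38.p6, given 5′ to 3′ on the gene's own strand. Capitals mark CACGTG and GGCGGG, the latter also as its reverse complement CCCGCC. Sycp3 is at chr10:88459487-88459586 on the plus strand, Sycp1 at chr3:102936101-102936200 on the minus strand, Hormad1 at chr3:95559577-95559676 on the plus strand, Syce2 at chr8:84872158-84872257 on the plus strand, Tex12 at chr9:50561269-50561368 on the minus strand and Syce1 at chr7:140787855-140787954 on the minus strand.
Sycp3: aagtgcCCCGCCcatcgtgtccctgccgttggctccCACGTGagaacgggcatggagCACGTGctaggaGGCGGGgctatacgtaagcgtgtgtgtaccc
Sycp1: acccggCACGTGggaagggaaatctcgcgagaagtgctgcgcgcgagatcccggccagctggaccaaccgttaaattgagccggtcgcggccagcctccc
Hormad1: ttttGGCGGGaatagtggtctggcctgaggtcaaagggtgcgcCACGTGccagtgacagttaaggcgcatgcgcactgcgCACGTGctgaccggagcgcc
Syce2: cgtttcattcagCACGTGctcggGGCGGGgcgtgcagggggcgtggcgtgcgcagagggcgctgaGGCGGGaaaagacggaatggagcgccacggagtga
Tex12: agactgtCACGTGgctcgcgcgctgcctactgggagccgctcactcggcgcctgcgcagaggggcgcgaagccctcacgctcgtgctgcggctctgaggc
Syce1: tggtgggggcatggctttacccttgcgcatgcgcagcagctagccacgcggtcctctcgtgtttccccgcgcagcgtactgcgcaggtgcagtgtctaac
RefSeq lists 2 starts for Hormad1 and for Syce2. The stretch before the other Syce2 start holds none of the motifs.

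Promoter windows were matched for 30 of the 36 members. No entry was found for Tex11, Tex15, Spo11, Meiob, Rad21 and H2afx. CACGTG, the core of the E-box, lay within 100 bases before a start in 5 of 30 members (16.7%) and in 3.70% of all 27025 genes with a window, and these 5 were all among the 9 synaptonemal complex genes. None of the 5 cohesin and none of the 15 recombination windows held it there, but in the whole window (250 bases before the start to 50 after it) Stag3 and Rnf212 held it too, which made 7 of 30 members (23.3%) against 8.09% of all genes. Within the 100 bases, GGCGGG lay in 15 of 30 members and in 26.5% of all genes. TATAAA lay within them in none of 30 members and in 6.57% of all genes. Both strands were searched, a site counted once, overlaps between motifs were allowed, and the members' windows were richer in G and C (median 60.0%) than those of all genes (52.7%). In the whole window TATAAA was in 3 members (10.0%; Atm, Brca2 and Syce3) against 15.7% of all genes. A match is a run of letters and says nothing of binding. The log2 differences of the 5 CACGTG genes ran from 0.02 to 0.23 (median 0.04), beside a median of 0.01 for the 21 tested members with a window but no such match.

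Sycp3, a lateral element protein and the brightest probe set of the group, read 17063 and 18851 in wild type and 16991 and 19537 in knockout. Its genotypes overlapped, with a log2 difference of 0.02 (95% interval -0.20 to 0.25; limma adjusted p = 0.91). Its axis partner Sycp2 read 10663 and 11027 in wild type and 11208 and 12304 in knockout. Both knockout arrays of Sycp2 stood above both wild type arrays, but the difference of 0.12 did not pass the test (limma adjusted p = 0.34). Sycp1, which spans the gap between the axes, read 4558 and 4517 in wild type and 4219 and 5231 in knockout, so the knockout arrays lay on either side of the wild type.

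The central element genes were split. Syce1 read 17280 and 16703 in wild type and 14228 and 14934 in knockout. Both knockout arrays were below both wild type arrays, with a log2 difference of -0.22 (SE 0.05, 95% interval -0.35 to -0.09), which missed the threshold (limma adjusted p = 0.084). Syce3 read 9151 and 8847 in wild type and 7851 and 7915 in knockout. Its separation was alike, with a log2 difference of -0.19 (95% interval -0.32 to -0.06; limma adjusted p = 0.10), and -0.08 after quantile normalization. Syce2 and Tex12, which form a complex with each other in the central element, differed by 0.02 and 0.04, and both overlapped between the genotypes. Syce1 and Syce3 were taken up in detail after their values were seen.

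The HORMA domain genes mark chromosome axes that have not synapsed. Hormad1 read 7270 and 8242 in wild type and 8215 and 10096 in knockout. The first knockout array lay inside the wild type range and the second above it, so its log2 difference of 0.23, the highest among the synaptonemal complex genes, came with an interval of -0.07 to 0.54 (limma adjusted p = 0.30) and was 0.09 without the second knockout array. Hormad2, the dimmest of these probe sets, read 537 and 526 in wild type and 568 and 564 in knockout. Its groups were separate, by a log2 difference of 0.09 (limma adjusted p = 0.52).

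**Figure D2:**
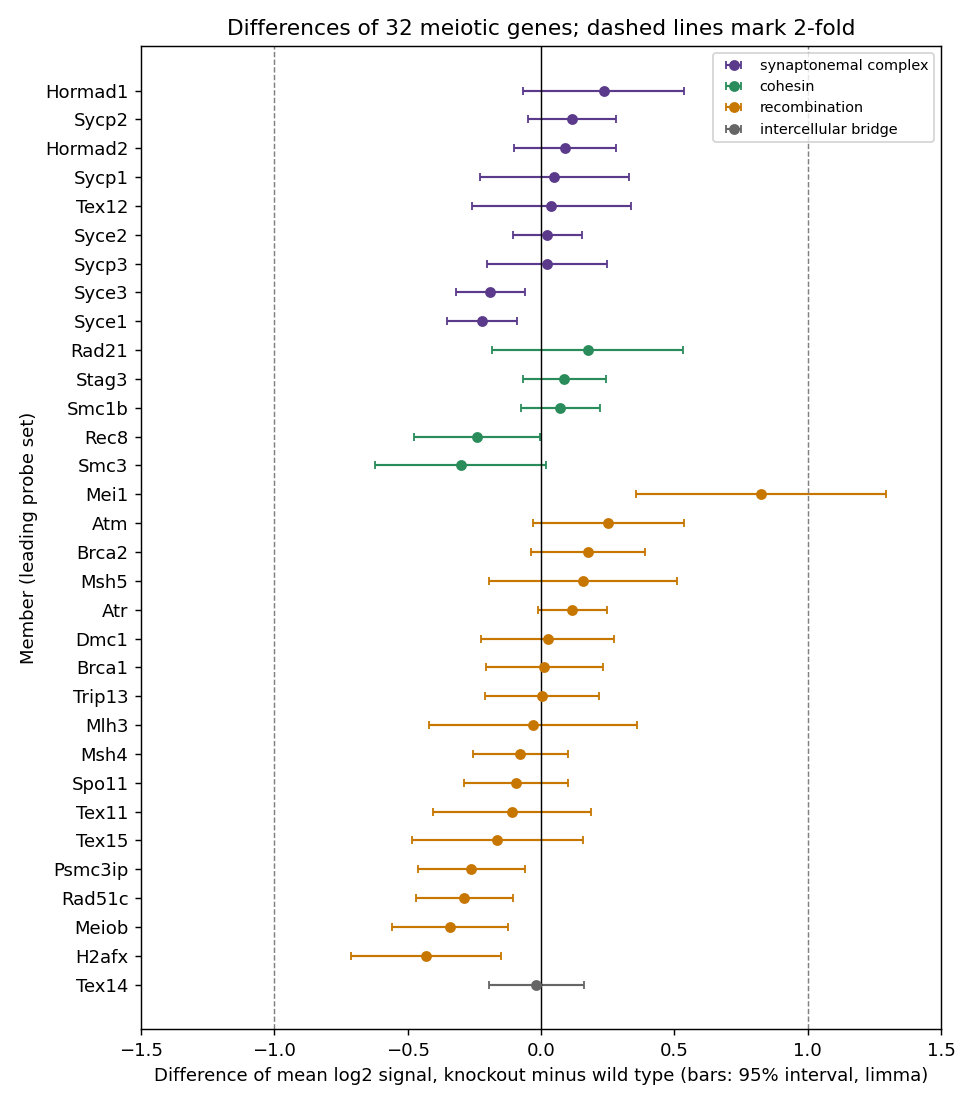
Difference of mean log2 signal, Taf7l knockout minus wild type, for the 32 tested members ordered within their subsets; points are the estimates (n = 2 arrays a group), bars the 95% intervals of limma, and dashed lines mark 2-fold. The bar of Mei1 (0.35 to 1.29) is the only one to cross a dashed line.

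No cohesin gene passed the test. Of the 5 tested members, 3 were higher and 2 lower in knockout, with log2 differences from -0.30 to 0.17 and a median of 0.07. The genotypes were separate for 4 of them, 2 in each direction, where 55.0% of all tested probe sets were separate. The median was 0.18 after quantile normalization and -0.02 without the second knockout array, so its direction rests on that array. The second knockout array read higher than the first for 4 of the 5 genes, and for 56.3% of all tested probe sets.

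Rec8, the meiotic kleisin that closes the ring, read 713 and 665 in wild type and 551 and 615 in knockout. All of its knockout signals were under the wild type signals, by a log2 difference of -0.24 (95% interval -0.48 to -0.01; limma adjusted p = 0.19). Smc3, a core subunit shared with mitotic cohesin, read 1527 and 1410 in wild type and 1062 and 1334 in knockout. It had the lowest log2 difference of the cohesin genes, at -0.30, with an interval that reached zero (-0.62 to 0.02; limma adjusted p = 0.22), since the first knockout array stood well under the second; without the first it was -0.14. Smc1b, the meiotic partner of Smc3 and the brightest cohesin probe set, read 6859 and 6519 in wild type and 6879 and 7183 in knockout. The genotypes of Smc1b were separate by a narrow margin, with a log2 difference of 0.07 (limma adjusted p = 0.51). Stag3, the meiotic stromal antigen subunit, read 6240 and 6149 in wild type and 6838 and 6334 in knockout. It too was a little higher on both knockout arrays, by 0.09 (limma adjusted p = 0.44). Rad21, the kleisin of mitotic cohesin, read 1470 and 1347 in wild type and 1390 and 1814 in knockout, and its higher mean came from the second knockout array alone. The other 2 probe sets of Rad21 differed by 0.19 and 0.09.

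None of the recombination genes passed the test. Of the 17 tested members, 8 were higher and 9 lower in knockout, with log2 differences from -0.43 to 0.82. The genotypes were separate for 9 of them (4 higher, 5 lower), where 55.0% of all tested probe sets were separate. The median was -0.03, and it turned to 0.05 after quantile normalization, so no direction is given for the group.

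Among the genes of break formation and signalling, Spo11, which cuts the DNA, read 2917 and 2829 in wild type and 2844 and 2548 in knockout, and the genotypes overlapped (log2 difference -0.09, limma adjusted p = 0.51). Mei1, which is needed for break formation, read 53.0 and 71.7 in wild type and 120 and 99.3 in knockout. Both knockout signals stood above both wild type signals, and the log2 difference of 0.82 (SE 0.18, 95% interval 0.35 to 1.29), or 1.77-fold, was the largest of all members. It missed the threshold (limma adjusted p = 0.078), and the wild type signals lie close to the filter level of 45.8.

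Atm, the kinase that answers DNA breaks, read 234 and 257 in wild type and 313 and 273 in knockout. The second probe set of Atm read 201 and 168 in wild type and 231 and 240 in knockout, and at both probe sets the genotypes were separate. The log2 differences were 0.25 and 0.36, and neither passed the test (limma adjusted p = 0.24 and 0.15). Atr, the kinase that acts on unsynapsed axes, read 13333 and 13835 in wild type and 14474 and 14996 in knockout at the brightest recombination probe set. Its groups were separate by a log2 difference of 0.12 (95% interval -0.01 to 0.25, limma adjusted p = 0.24). The 2 dimmer probe sets overlapped, at 0.08 and 0.11. Their mean signals were 658 and 449, beside 14160 at the leading one, so the level of Atr depends on the probe set.

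H2afx (now H2ax), the histone that those kinases phosphorylate at breaks and over the sex chromosomes, read 1418 and 1170 in wild type and 978 and 934 in knockout. All knockout signals were under the wild type signals (1294 ± 175 against 956 ± 31.5, SD, n = 2 arrays each). Its log2 difference of -0.43 (SE 0.11, 95% interval -0.71 to -0.15), 1.35-fold, was the lowest of all members and missed the threshold (limma adjusted p = 0.097). Brca1, which brings Atr to unsynapsed axes, read 488 and 447 in wild type and 465 and 477 in knockout at its leading probe set, where the genotypes overlapped (0.01). At the second Brca1 probe set the signals were 175 and 179 in wild type and 153 and 153 in knockout. Those were separate, by a log2 difference of -0.21 (limma adjusted p = 0.22), and the dimmest tested one differed by -0.06. Trip13, the ATPase that strips HORMA domain proteins from axes, differed by 0.00 and 0.06 at 2 probe sets.

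Among the strand exchange genes, Psmc3ip (Hop2), the partner of Mnd1 that helps Dmc1 pair strands, read 9993 and 9822 in wild type and 7713 and 8852 in knockout. Its second probe set read 6915 and 7074 in wild type and 5724 and 6120 in knockout. Both showed separate genotypes, with log2 differences of -0.26 and -0.24 (limma adjusted p = 0.13 and 0.091). Meiob, a single-strand DNA binding protein of meiosis, read 1028 and 919 in wild type and 772 and 764 in knockout. Its separation, by a log2 difference of -0.34 (SE 0.09, 95% interval -0.56 to -0.12), 1.27-fold, did not pass the test (limma adjusted p = 0.092). Psmc3ip was taken up in detail after its values were seen.

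Rad51c, which acts in strand exchange, gave different answers at its 2 probe sets. The leading one read 871 and 874 in wild type and 701 and 728 in knockout, a log2 difference of -0.29 (SE 0.07, limma adjusted p = 0.092). The second read 482 and 495 in wild type and 511 and 487 in knockout, and there the genotypes overlapped (0.03, limma adjusted p = 0.86). Dmc1, the meiotic recombinase, differed by 0.03 and -0.08 at its 2 probe sets, and the genotypes overlapped at both. Brca2, which acts in the repair of breaks by recombination, read 1499 and 1397 in wild type and 1720 and 1551 in knockout, with separate genotypes and a difference of 0.17 (limma adjusted p = 0.28). Tex15, which is needed for the repair of meiotic breaks, read 4703 and 3758 in wild type and 3537 and 3976 in knockout, with the genotypes mixed.

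Rad51c and Tex14 lie head to head on chromosome 11, with listed starts as near as 111 bases, which is why the Rad51c stretch is shown. It is at chr11:87404507-87404606 on the minus strand of GRCm38.p6 and precedes the other of the 2 listed Rad51c starts, which lies 559 bases from that of Tex14. Capitals mark TGACGTCA, the full cAMP response element, and GGCGGG on either strand.
Rad51c: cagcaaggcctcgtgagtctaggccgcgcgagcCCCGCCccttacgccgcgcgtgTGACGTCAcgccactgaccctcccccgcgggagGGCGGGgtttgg
TGACGTCA was in this stretch and in that of Brca2, thus in 2 of 30 members (6.67%) and in 1.36% of all genes. The stretch before the Rad51c start nearer to Tex14 holds GGCGGG but not TGACGTCA. Tex14, which keeps the bridges between germ cells open, read 1342 and 1405 in wild type and 1391 and 1323 in knockout. It overlapped between the genotypes, at a log2 difference of -0.02 (limma adjusted p = 0.91), beside -0.29 at the leading probe set of Rad51c.

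The crossover genes did not pass the test. Msh4, of the complex that stabilises crossover intermediates, read 1030 and 1011 in wild type and 946 and 988 in knockout, a log2 difference of -0.08 (limma adjusted p = 0.55). Its partner Msh5 had the dimmest recombination probe sets, beside Mei1. The leading one read 77.6 and 76.6 in wild type and 76.6 and 96.4 in knockout, and the second read 85.8 and 82.7 in wild type and 78.7 and 79.1 in knockout. These 2 probe sets pointed in opposite directions, at 0.16 and -0.09 (limma adjusted p = 0.54 and 0.59). Mlh3, of the nuclease that resolves crossovers, read 452 and 608 in wild type and 514 and 511 in knockout, so the wild type arrays enclosed the knockout. Tex11, an X-linked gene of crossover formation, read 454 and 515 in wild type and 416 and 483 in knockout and overlapped (-0.11, limma adjusted p = 0.62).

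**Figure D3:**
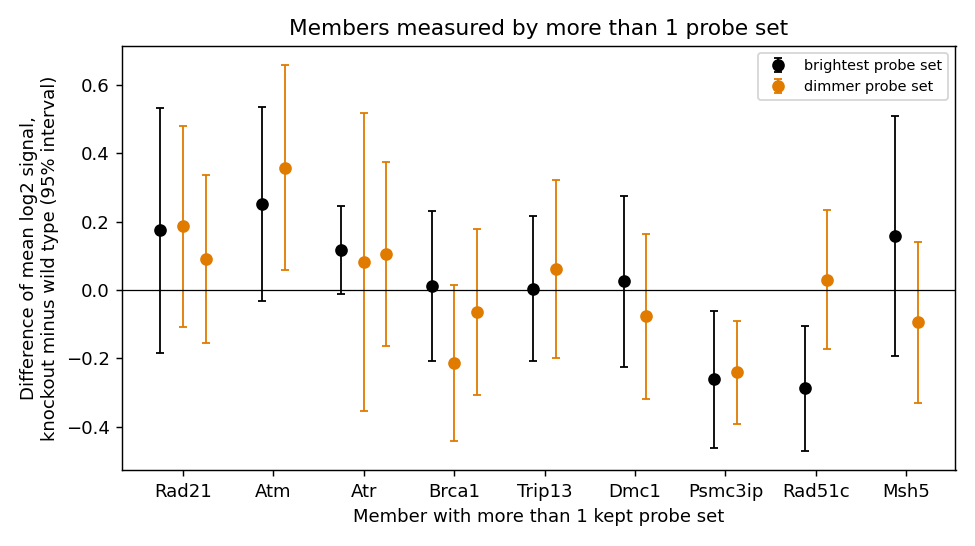
Difference of mean log2 signal, Taf7l knockout minus wild type, at each tested probe set of the 9 members with more than 1; black is the brightest probe set, orange the dimmer ones, and bars are 95% intervals (limma, n = 2 arrays a group). Probe sets pointed one way for 5 members and different ways for 4 (Brca1, Dmc1, Msh5 and Rad51c).

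A stricter filter changed the call of several members. When only probe sets above the 75th percentile of mean signal were tested (11260 probe sets, 29 members, without Mei1, Atm and Msh5), 5 members passed, all lower in knockout. These were Syce1 (limma adjusted p = 0.031), H2afx (0.026), Psmc3ip (0.046), Rad51c (0.042) and Meiob (0.032). Over the other alternatives their limma adjusted p lay above the threshold and reached 0.43 for Psmc3ip. Quantile normalization kept their direction but brought the log2 difference of Syce1 to -0.14 and that of Psmc3ip to -0.15, and the mean over both probe sets brought that of Rad51c to -0.13. Under that filter 21.1% of all probe sets passed and 17.3% passed as lower, so 5 of 29 members is near the background. The differences themselves did not move, since the filter alters only which probe sets share the adjustment and the estimate of spread. No member passed under any other alternative tried.

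The other genes of these pathways were read from lists of 93 genes that are not members, of which 73 had a tested leading probe set. Of these 73, 31 were higher and 42 lower in knockout, where 60.0% of all tested probe sets were lower. Their median log2 difference was -0.05. Where 1.39% of all tested probe sets passed the test, 1 of the 73 did. That was Nbn, of the complex that processes break ends, which read 1231 and 1190 in wild type and 837 and 864 in knockout. It fell by 0.51 on the log2 scale (SE 0.07, limma adjusted p = 0.049), and by 0.49 to 0.53 without each array in turn. The call is at the threshold: it was lost after quantile normalization (limma adjusted p = 0.067), with no filter (0.16), without the trend (0.081), with a robust prior (0.051), with the replicate block (0.051) and over single-transcript probe sets (0.051). Neither of its complex partners passed here. Rad50 read 375 and 317 in wild type and 628 and 564 in knockout, a log2 difference of 0.79 (limma adjusted p = 0.051) that was 0.67 to 0.91 without each array in turn. It passed with median centring (limma adjusted p = 0.047), with the 75th percentile filter (0.0071), with the replicate block (0.038) and with the mean of probe sets (0.028). Mre11a (Mre11) differed by -0.06.

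The lowest difference of a leading probe set was that of Mybl1, a transcription factor of pachytene genes, just under that of Nbn. After Rad50, the highest was that of Rad51d, on the strand exchange list. Rad51d read 206 and 319 in wild type and 408 and 369 in knockout at its leading probe set (0.60, limma adjusted p = 0.18). Its second probe set read 186 and 200 in wild type and 458 and 412 in knockout, a rise of 1.17 on the log2 scale that passed (limma adjusted p = 0.038). Mybl1, also on the pachytene marker list below, read 490 and 401 in wild type and 324 and 291 in knockout (-0.53, limma adjusted p = 0.089). The dimmer Mybl1 probe set read 219 and 258 in wild type and 230 and 205 in knockout. There the genotypes overlapped (-0.13, limma adjusted p = 0.59). Sohlh2, a transcription factor of early germ cells named after its values were seen, read 243 and 244 in wild type and 384 and 339 in knockout (0.57, limma adjusted p = 0.059). Pttg1, the securin that restrains separase, fell by 0.64 at its second probe set (limma adjusted p = 0.047) but differed by -0.27 at its leading one (limma adjusted p = 0.11) and by -0.0024 at its dimmest (limma adjusted p = 0.99). The crossover resolution list had the lowest median of these lists, -0.18 over 7 tested genes of 12. The meiotic entry list had the highest, 0.08 over 9, and the other lists ran from -0.105 to -0.025. Cntd1, the lowest crossover gene, differed by -0.47 at its leading probe set but by 0.39 and 0.36 at its dimmer ones.

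Markers of testis cell types are given beside the members, and their part in the results was not tested. Pachytene spermatocyte markers were lower for 10 of 10 genes (median -0.22), where 60.0% of all tested probe sets were lower. Their summed signal was 163740 to 169860 in wild type and 152550 to 154320 in knockout. Most of that sum was Ldhc and Pgk2. Ldhc read 60292 and 56702 in wild type and 58328 and 57158 in knockout. Pgk2 read 43938 and 42782 in wild type and 41944 and 38960 in knockout. Round spermatid markers were lower for 8 of 8 (median -0.21; sums 84147 to 87378 and 73400 to 77511). The 4 tested Leydig cell markers were all higher (median 0.34, sums 15804 to 16079 and 19893 to 20236). The test was passed by 1 of them, and by 1.39% of all tested probe sets. Leukocyte markers were higher for 5 of 5 (median 0.20; sums 1433 to 1502 and 1720 to 1733), with Ptprc and Cd68 under the filter level. Spermatogonial markers had a median of 0.07, with sums of 33399 to 34788 and 32502 to 35746 that overlapped, and Gfra1 and Ret lay under the filter level. Elongating spermatid markers were higher for 1 of 8 (median -0.13; sums 453710 to 470370 and 420570 to 438620). Sertoli cell markers, with Amh and Fshr under the filter level, had a median of 0.03 (sums 36945 to 40174 and 43116 to 48319). Most of the Sertoli sum was Clu (35026 and 32203 in wild type, 43413 and 37656 in knockout). Most of the spermatogonial sum was Ddx4 (31820 and 33139 in wild type, 30791 and 34123 in knockout). The overlap of that sum thus mainly describes Ddx4 and gives no measure of spermatogonia. Adipocyte and epididymis markers summed to 887 and 3792 in wild type and 978 and 1605 in knockout, the second wild type array standing apart.

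**Figure D4:**
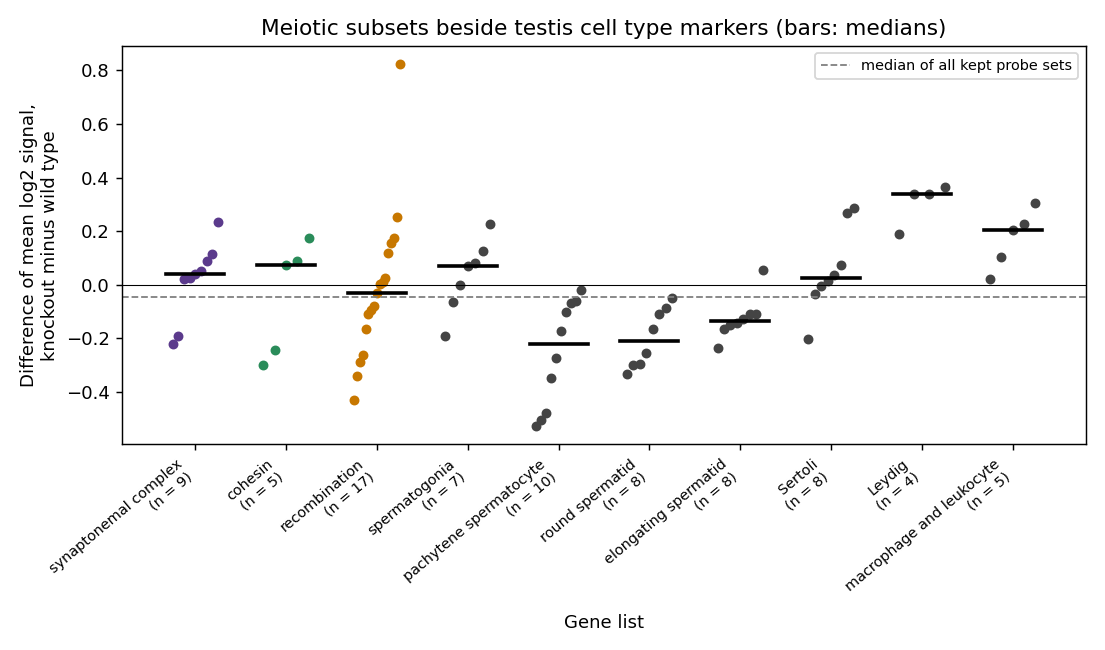
Difference of mean log2 signal, Taf7l knockout minus wild type, for each tested gene (points) of the 3 meiotic subsets (coloured) and of testis cell type marker lists (grey), with the median of each as a bar and that of all tested probe sets (-0.045) as a dashed line. The subset medians (0.04, 0.07 and -0.03) lie above those of the pachytene (-0.22) and round spermatid (-0.21) markers; this difference was not tested.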

How the data were processed

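Testis RNA was hybridised to 4 Affymetrix mouse arrays, 1 colour each. The submitters' processing notes name MAS5, and the deposited values are on a linear intensity scale. Whether the values behave as MAS5 signals do was not tested. The MAS5 version and the scaling target are not given in the sources used here. Of 45101 probe sets, 64 controls were left out, and 34945 of the 45037 others carried 1 symbol. Log2 of the signal (offset 0) was fitted with limma 3.58.1 in R 4.3.3 (lmFit, eBayes with trend, genotype only, residual df 2, prior df 3.17), two-sided, with Benjamini-Hochberg adjustment over 22519 probe sets at or above the median mean signal and a threshold of 0.05. The fit was tested on simulated data. The number of arrays limits the precision, and no depth applies.

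The members and lists were chosen with earlier results of these data known. Values on every array were to be given for members that passed, the 3 largest differences in each direction, the brightest and dimmest of each subset, and members whose probe sets disagreed by over 0.2; of the other pathway genes, those that passed and the 2 largest in each direction. Alternatives were quantile normalization, median centring, other filters, an offset of 16, no trend, a robust fit, the mean of a gene's probe sets, single-transcript probe sets, a replicate block and leaving out each array.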

Additional observations from a re-analysis of the deposited data

How the results depend on the processing

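No member passed the test under any alternative run except the 75th percentile filter, where 5 did. The count of all probe sets that passed was 312 (32.1% higher). It was 148 after quantile normalization (61.5% higher), 646 after median centring (22.8% higher), 2375 with the 75th percentile filter (18.2% higher), 0 with no filter (limma; 6192 had an unadjusted p under 0.05), 36 without the trend (69.4% higher), 179 over single-transcript probe sets and 0 without each array in turn (limma; 3084 to 5500 at an unadjusted p under 0.05). With a replicate block it was 541 and no member passed; same-numbered arrays did not deviate together (r = 0.032 across probe sets), so the numbers are not taken as pairs.

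The synaptonemal complex median was 0.16 after quantile normalization and -0.078 to 0.12 without each array; the cohesin median was 0.18 and -0.02 to 0.10. The recombination median was 0.05 after quantile normalization, -0.086 with the 75th percentile filter and -0.078 with the mean of probe sets or single-transcript ones.

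The sign turned for 13 of 32 members under some alternative and for 19 under none. Without each array the log2 differences ran from -0.11 to 0.21 for Sycp1, -0.078 to 0.12 for Sycp3, -0.0099 to 0.058 for Syce2, -0.12 to 0.19 for Tex12, -0.017 to 0.37 for Rad21, -0.051 to 0.075 for Brca1, -0.035 to 0.044 for Trip13, -0.061 to 0.11 for Dmc1, -0.0092 to 0.32 for Msh5, -0.25 to 0.18 for Mlh3 and -0.054 to 0.019 for Tex14. Quantile normalization gave 0.046 for Spo11, 0.028 for Msh4, 0.033 for Mlh3 and 0.093 for Tex14. Centring gave -0.0052 for Trip13, the mean of probe sets -0.089 for Brca1 and -0.026 for Dmc1, and single-transcript probe sets -0.094 for Msh5. The single-transcript value of Msh5 is that of its second probe set, as its leading one was not among the single-transcript ones. The means of Brca1 and Dmc1 average probe sets that point in different ways. Centring shifts every probe set by the same amount. The cause of the other turns was not tested. Signal over background limits the dim probe sets of Mei1 and Msh5; Mei1 kept its direction throughout.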
